A study of Mus musculus with 28 samples.

Results

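Fah-/- p53-/- mouse liver at a reduced dose of NTBC was set against liver of the same genotype at the full dose. The arrays were chosen by their labels alone: 4 arrays at the reduced dose and 4 at the full dose, of 28 in the series. Every gene on the array was a candidate, and 20303 features were tested, of which 14574 carried a gene symbol and the rest an accession. All mice lacked Fah, fumarylacetoacetate hydrolase, and those of this genotype also lacked p53, so the controls at full NTBC carry both losses too. Fah-/- liver with p53 intact, again 4 arrays at the reduced and 4 at the full dose, served to show where the response differed. The full dose was 7.5 mg/L NTBC in drinking water. The reduced dose is given as 25% of it in the sample labels and as 2.5%, for 3 months, in the treatment and design notes, and the conflict could not be settled here. Strain, age and the allele of either knockout are not given in the sources used here, and whether the 4 arrays of a group stand for 4 different mice is not stated, so each p-value reflects array-to-array spread that may be technical.

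Fah catalyses the final step of tyrosine breakdown. Without it, fumarylacetoacetate and related reactive metabolites build up in hepatocytes and injure them, and succinylacetone blocks heme synthesis. NTBC (nitisinone) blocks Hpd, an earlier enzyme of the pathway, and so keeps these metabolites from forming, and lowering the dose lets some of them form again. In such liver the transcription factor NRF2 is known to switch on antioxidant genes, and p53 is known for inducing the cell cycle inhibitor p21 (Cdkn1a), DNA damage genes and cell death genes. The comparison asks which liver transcripts followed the dose when p53 was absent.

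Each value below is a log2 level, the log2 intensity of a probe minus the log2 of the 75th percentile of its array, so that 0 is that percentile and 1 unit is a doubling of intensity. Where 4 levels of a group are listed, they follow the replicate numbers of the labels, and levels of different probes cannot be set against each other. Differences are log2 level at reduced minus full NTBC ± SE from 1 limma fit over the 28 arrays. A gene is said to have risen or fallen where its p, adjusted by Benjamini and Hochberg over all 20303 features, was under 0.05. The arrays at reduced NTBC were brighter, with a 75th percentile of 364 to 443 against 252 to 296 at full NTBC, and had 66.2% to 68.5% of probes well above background against 57.3% to 62% at full NTBC. Each group filled a slide of its own and the doses were scanned in different runs, so dose, slide and scan run cannot be told apart. All 16 arrays used carried Ddx3y, a Y-linked transcript, above background, and none carried Xist, the RNA of X inactivation.

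The labelled tissue was borne out by Alb, the liver's serum albumin, at 9.83 ± 0.07 at reduced and 10.56 ± 0.10 at full NTBC (SD, n = 4 each), well above background on all 8 arrays. The targeted genes could not be checked, since their probes may lie outside the deleted parts. Fah probe levels were -1.0 ± 0.31 and -0.60 ± 0.51 at reduced and full NTBC (SD, n = 4 each), and 2 Trp53 probes gave differences of 0.52 and -0.04. Among the reduced arrays replicate 1 lay farthest from the group mean (SD over features of its distance 0.326, against 0.216 to 0.281 for the other 3). The 4 full arrays each lay farther from their own mean, at 0.363 to 0.372. Values without replicate 1 at reduced NTBC are given where it matters.

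Promoter windows of genes whose values follow are shown first, because they hold letters that transcription factors of these pathways are known to bind. NRF2 is known to bind antioxidant elements with the core TGACNNNGC, and clock factors bind the E-box CACGTG. Both strands of RefSeq's promoter windows (build GRCm38.p6, 250 bases before to 50 after a gene's start) were searched. The antioxidant core was found in 12.4% of all 32851 windows and the E-box in 7.15%. A gene can have several windows, and at least 1 window held the core in 14% and the E-box in 8.09% of 27025 genes. Abcc4 and Amn were among the genes with the largest rises, Srxn1 is a sulfiredoxin known as an NRF2 target, and Ciart is a clock repressor that fell. The windows lie at chr14:118706170-118706469 on the minus strand for Abcc4, chr12:111270846-111271145 on the plus strand for Amn, chr2:152105274-152105573 on the plus strand for Srxn1 and chr3:95882179-95882478 on the minus strand for Ciart. Capitals mark the antioxidant core, on either strand, in the first 3 windows and the 3 E-boxes in the Ciart window.
Abcc4: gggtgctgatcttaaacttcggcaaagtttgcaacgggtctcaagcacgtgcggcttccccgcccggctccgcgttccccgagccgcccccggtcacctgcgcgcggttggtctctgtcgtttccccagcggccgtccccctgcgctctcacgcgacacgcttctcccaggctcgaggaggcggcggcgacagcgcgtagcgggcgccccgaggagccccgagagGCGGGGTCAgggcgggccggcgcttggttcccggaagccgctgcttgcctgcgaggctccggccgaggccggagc
Amn: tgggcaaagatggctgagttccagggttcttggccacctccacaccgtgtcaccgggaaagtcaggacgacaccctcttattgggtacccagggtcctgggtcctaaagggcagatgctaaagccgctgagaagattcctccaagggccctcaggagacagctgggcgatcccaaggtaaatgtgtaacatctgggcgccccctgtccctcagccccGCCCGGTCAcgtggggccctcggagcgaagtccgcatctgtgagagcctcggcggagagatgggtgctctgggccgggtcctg
Srxn1: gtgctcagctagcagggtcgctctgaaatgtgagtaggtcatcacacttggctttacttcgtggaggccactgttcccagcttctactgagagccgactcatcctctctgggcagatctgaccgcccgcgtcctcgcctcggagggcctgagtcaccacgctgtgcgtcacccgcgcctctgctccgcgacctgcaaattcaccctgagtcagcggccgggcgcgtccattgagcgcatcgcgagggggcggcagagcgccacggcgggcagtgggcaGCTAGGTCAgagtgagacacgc
Ciart: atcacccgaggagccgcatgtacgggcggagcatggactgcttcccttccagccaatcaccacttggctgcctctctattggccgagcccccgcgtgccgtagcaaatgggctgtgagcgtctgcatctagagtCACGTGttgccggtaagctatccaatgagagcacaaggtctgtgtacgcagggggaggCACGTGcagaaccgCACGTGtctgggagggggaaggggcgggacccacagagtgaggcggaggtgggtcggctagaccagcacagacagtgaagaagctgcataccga
Of the reductase genes described below, 4 of 14 with a window held the antioxidant core, as did 2 of 11 glutathione synthesis genes, 4 of 18 glutathione transferases and 3 of 6 NADPH-making enzymes. The windows of Cbr3, Nqo1, Slc7a11 and Mgst2 held none. A sterol element, TCACNCCAC, found in 1.24% of all windows and 1.44% of all genes, was in 1 of 17 sterol genes with a window, Hmgcs1. A match is a description of letters only, and its absence says only that those letters are not in that window.

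Of the 20303 features 8088 (39.8%) were called, 4119 of them (20.3%) higher at reduced NTBC and 3969 (19.5%) lower. The median difference over all features was 0.02. For 1558 of the higher and 769 of the lower features the change was at least 2-fold. The 4 arrays of one dose lay on one side of the 4 of the other for 7966 of 20286 features with 8 values (39.3%). The balance of directions depends on the treatment of the background. With a model-based background correction (normexp), 10683 features were called, of which 24.6% were higher, against 50.9% with the processed signal, and the median over all features was -0.34. Calls also followed brightness: among the 4061 dimmest features 32.0% rose and 3.92% fell, and among the 4061 brightest 9.28% rose and 42.0% fell. The medians of these brightest features were -0.25 with the main scaling, -0.01 with quantile normalization, -0.00239 in the deposited table and 0.30 with normexp. Sizes changed too: of 114 called genes named here, 39 had a log2 difference smaller by over 1.5 times with normexp and 4 a larger one, and 21 had a smaller one in the deposited table. Small falls of abundant liver transcripts therefore depend on the scaling, and medians of gene lists are given under all 4 treatments in the plot of list medians.

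**Figure D1:**
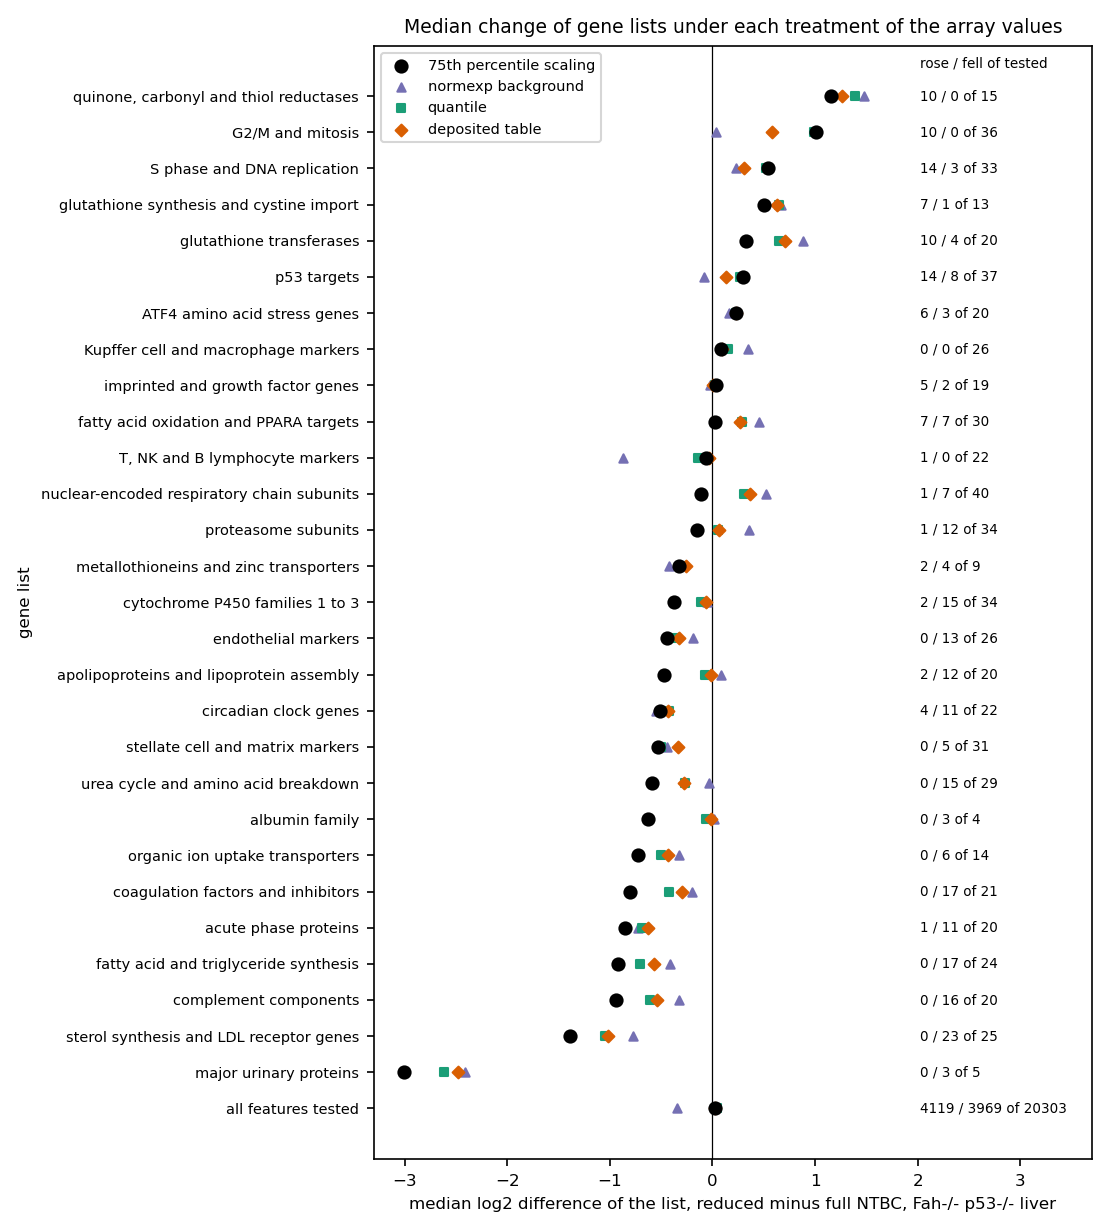
Median log2 difference, reduced minus full NTBC, over the tested members of 28 gene lists and over all 20303 features, with the 4 treatments of the array values as 4 symbols; the numbers at the right are members that rose, members that fell and members tested. Reductases, glutathione genes and glutathione transferases lie right of 0 and sterol, fatty acid synthesis and clock genes left of 0 under all 4 treatments, while mitosis, proteasome and respiratory chain genes shift with the treatment.

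The antioxidant genes of the liver rose at reduced NTBC. Of 15 quinone, carbonyl and thiol reductases tested, 10 rose and 0 fell, with a median difference of 1.15, against 20.3% and 19.5% of all features and a median of 0.02. Cbr3, a carbonyl reductase, had log2 levels of 7.14, 7.06, 7.38 and 7.74 at reduced NTBC, against 0.07, -0.84, 1.12 and 0.76 at full NTBC. This difference of 7.05 ± 0.32 (adjusted p = 8.63e-13) was the largest rise of any named gene, and it was 6.96 with normexp. Nqo1, the quinone reductase most used as an NRF2 reporter, had 2.82, 2.92, 2.95 and 2.93 at reduced NTBC, against 0.95, 1.49, 1.90 and 1.78 at full NTBC, a rise of 1.37 ± 0.20 (adjusted p = 1.28e-05). The reduced arrays were nearly alike for Nqo1, and the spread lay among the full ones. Akr1b7, an aldose reductase family member, rose by 2.60 ± 0.47. Ptgr1, which reduces prostaglandins and reactive alkenals, rose by 1.64 ± 0.38, and Ephx1, the microsomal epoxide hydrolase, by 1.58 ± 0.17. Srxn1, which repairs over-oxidised peroxiredoxins, rose by 1.35 ± 0.30. For Akr1b7, Ptgr1, Ephx1 and Srxn1 the groups did not overlap.

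Glutathione is the liver's main thiol, made by the ligases Gclc and Gclm from cysteine that Slc7a11 imports as cystine, recycled by Gsr and broken down outside the cell by Ggt1. Of 13 genes of glutathione synthesis and cystine import 7 rose and 1 fell, against 20.3% and 19.5% of all features. Their median was 0.51. Gclc, the catalytic subunit of the rate-limiting ligase, had 6.89, 6.98, 6.84 and 6.90 at reduced NTBC, against 5.15, 5.55, 5.0 and 4.81 at full NTBC, a rise of 1.77 ± 0.17 (adjusted p = 7.93e-08). Ggt1, a gamma-glutamyltransferase that adult hepatocytes hardly express, had 0.03, 1.46, 1.33 and 1.45 at reduced NTBC, against -3.90, -5.53, -4.34 and -3.60 at full NTBC. The rise of Ggt1 was 5.41 ± 0.38 (adjusted p = 1.06e-09), with the probe well above background on 3 of the 4 full arrays, and 2.12 with normexp. Slc7a11 had -3.65, -0.10, -2.22 and -2.06 at reduced NTBC, against -6.23, -6.23, -6.56 and -6.86 at full NTBC, where its probe was not well above background on any array. Slc7a11 was thus at least 5.79-fold higher, taken against the lowest signal that passed background on the full arrays, and its call (adjusted p = 3.64e-07) was lost with normexp, at a log2 difference of 0.09. Gsr rose by 0.82 ± 0.16. Gpx4, which reduces lipid peroxides, did not pass with the main scaling (0.16 ± 0.14) but was called higher with normexp (0.75), quantile normalization (0.60) and the deposited table (0.67). Slc3a2, the partner chain of Slc7a11, did not pass (-0.28 ± 0.16).

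Glutathione transferases split by member. Of 20 tested, 10 rose and 4 fell, against 20.3% and 19.5% of all features, with a median of 0.33. Mgst2, a microsomal transferase, had 3.63, 4.11, 3.86 and 4.56 at reduced NTBC, against -2.77, -2.78, -1.07 and -2.12 at full NTBC, a rise of 6.23 ± 0.32 (adjusted p = 4.63e-12). No reduced array came near a full one for Mgst2. Gsta2 had 7.53, 7.43, 7.56 and 7.67 at reduced NTBC, against 3.72, 5.6, 6.47 and 6.28 at full NTBC, a rise of 2.03 ± 0.35, and Gsta1 rose by 1.73 ± 0.33. Gsta1 and Gsta2 are near-identical copies whose probes may read both. Gstm4 rose by 1.71 ± 0.22 and Mgst3 by 1.28 ± 0.27.

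NADPH supplies the electrons for these reductases. Pgd, an enzyme of the pentose phosphate pathway, had 4.11, 4.24, 4.22 and 4.15 at reduced NTBC, against 2.75, 2.95, 3.53 and 2.99 at full NTBC, a rise of 1.12 ± 0.19 (adjusted p = 7.42e-05). G6pdx, which feeds Pgd, rose by 0.95 ± 0.32 (adjusted p = 0.0208), a call lost without replicate 1 at reduced NTBC and without replicate 2 at full NTBC. Me1 (0.38 ± 0.22) and Taldo1 (-0.26 ± 0.12), also NADPH or pentose enzymes, did not pass, though Me1 was called higher with normexp (0.98) and in the deposited table (0.59), and Taldo1 was called lower without replicate 4 at full NTBC (-0.35). Among 8 genes of NRF2 control, 2 rose and 0 fell, against 20.3% and 19.5% of all features. Nfe2l2, which encodes NRF2 itself, rose by 0.46 ± 0.13. Cul3, a scaffold of the ligase that degrades NRF2, rose by 0.37 ± 0.12, a call lost without replicate 1 at full NTBC (0.31). Keap1, the sensor of that ligase, was level at -0.03 ± 0.12.

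**Figure D2:**
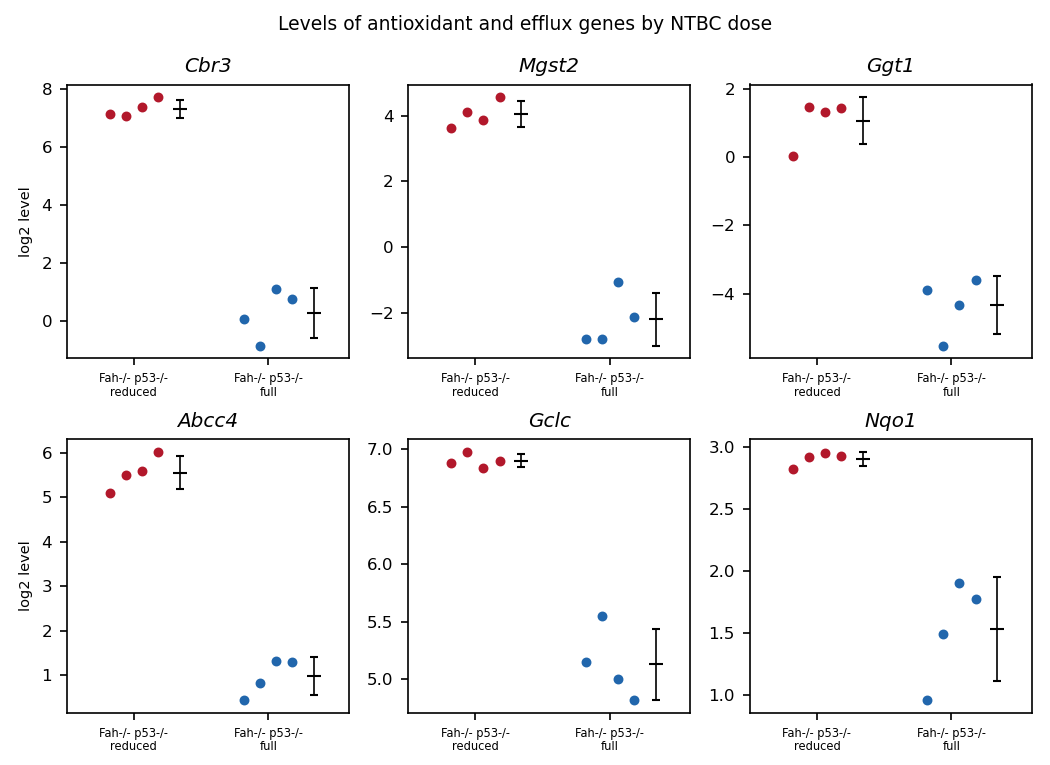
Log2 level, relative to the 75th percentile of each array, of 6 antioxidant and efflux genes in Fah-/- p53-/- liver at reduced (red) and full (blue) NTBC; points are the 4 arrays of a group and bars show mean ± SD. In each panel all 4 reduced arrays lie above all 4 full ones, with Cbr3 at 7.06 to 7.74 against -0.84 to 1.12.

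Some efflux pumps rose and some uptake carriers fell. Abcc4 (MRP4), which exports glutathione conjugates and bile acids across the sinusoidal membrane, had 5.10, 5.51, 5.59 and 6.03 at reduced NTBC, against 0.43, 0.83, 1.32 and 1.30 at full NTBC. Its rise of 4.59 ± 0.28 (adjusted p = 5.64e-11) was 4.72 with normexp. Abcc5 rose by 2.32 ± 0.18, with 1.12 to 4.25 over its 3 probes, and Abcg2, a xenobiotic and urate pump, by 1.0 ± 0.21. In all, 5 of 15 pumps rose and 2 fell, against 20.3% and 19.5% of all features. Of 14 organic ion uptake carriers 0 rose and 6 fell (42.9%), with a median of -0.72 (-0.32 with normexp). Of these 14, 8 lay among the 4061 brightest features, where 42.0% fell. Slc22a26, an organic anion transporter family member, had -2.37, -2.33, -1.29 and -1.94 at reduced NTBC, against 3.14, 1.84, 0.85 and 3.11 at full NTBC, a fall of -4.22 ± 0.41 (adjusted p = 8.47e-08). Slc22a7, the anion carrier OAT2, had -1.86, -1.72, -1.36 and -2.96 at reduced NTBC, against 3.03, 1.88, 0.83 and -0.76 at full NTBC, a fall of -3.22 ± 0.61. Slco1a4 fell by 2.17 on the log2 scale and Slco2b1, another organic anion carrier, by 1.35. Every one of the 4 carriers named kept its groups apart.

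Cubilin's partner and an amino acid carrier were among the largest rises as well. Amn, amnionless, the membrane anchor of cubilin, had 1.80, 2.58, 2.85 and 2.71 at reduced NTBC, against -3.04, -3.41, -2.60 and -3.04 at full NTBC, a rise of 5.51 ± 0.31 (adjusted p = 2.57e-11). Slc1a1, a glutamate and cysteine carrier, had 1.87, 1.96, 1.91 and 2.35 at reduced NTBC, against -1.26, -3.18, -2.63 and -1.56 at full NTBC, a rise of 4.18 ± 0.35 (adjusted p = 1.02e-08). Both showed gaps between the groups that were wider than the spread within either, and with normexp the rises were 3.56 for Amn and 2.72 for Slc1a1.

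H19 and Igf2, neighbours in an imprinted fetal growth locus, had the largest rises among growth genes. H19, a maternally expressed noncoding RNA that is silent in adult liver, had 3.25, 6.97, 6.16 and 5.01 at reduced NTBC, against -1.59, -2.72, 1.08 and -0.37 at full NTBC. Its rise was 6.25 ± 0.68 (adjusted p = 3.05e-07). Igf2, the fetal insulin-like growth factor beside it, had 0.83, 6.87, 5.99 and 4.24 at reduced NTBC, against -1.69, -2.44, 0.14 and -1.10 at full NTBC, a rise of 5.75 ± 0.80 (adjusted p = 7.58e-06). Replicate 1 at reduced NTBC was lowest for both, and without it the rise of Igf2 was 6.97 and that of H19 6.95. Grb10, an imprinted growth inhibitor that binds insulin-like growth factor receptors, had 0.54, 0.10, 1.43 and 2.2 at reduced NTBC, against -1.71, -1.90, -1.10 and -1.05 at full NTBC, a rise of 2.51 ± 0.40.

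Other imprinted or fetal genes moved as well. Peg3 rose by 2.84 ± 0.44 (1.05 with normexp) and Cdkn1c, the imprinted cell cycle inhibitor p57, by 1.62 ± 0.29. Gpc3, glypican 3, an oncofetal proteoglycan used as a liver tumour marker, had 1.07, 1.31, 1.80 and 3.45 at reduced NTBC, against -4.05, -3.17, -3.05 and -3.32 at full NTBC, a rise of 5.31 ± 0.43 (adjusted p = 6.81e-09) that was 2.97 with normexp. Ly6d, a surface protein gene of the fetal and tumour list, rose by 3.57 ± 0.40. Afp, alpha-fetoprotein, had 2.10, 3.93, 3.42 and 2.78 at reduced NTBC, against 0.03, -0.09, 3.49 and 3.18 at full NTBC, so that the full group split into a low and a high pair and the gene did not pass (1.41, adjusted p = 0.0515). Afp was called higher with normexp (1.58), quantile normalization (1.52) and the deposited table (1.38), and without replicate 1 at reduced NTBC (1.72) or replicate 3 or 4 at full NTBC. As whole lists these genes stayed near the 20.3% and 19.5% of all features. Of 19 imprinted and growth factor genes 5 rose and 2 fell, and of 29 fetal and tumour markers 7 rose and 6 fell. Ghr, the growth hormone receptor, fell by 1.02 on the log2 scale, a call lost with normexp, and its target Igf1 did not pass (-0.66 ± 0.38).

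The responses of H19, Igf2 and Grb10 differed between genotypes. In Fah-/- liver the difference between doses was 0.61 for H19, -0.47 for Igf2 and 0.27 for Grb10, none of them called. The difference of the 2 responses was 5.64 for H19 (adjusted p = 0.000707), 6.22 for Igf2 (adjusted p = 0.00133) and 2.24 for Grb10 (adjusted p = 0.013), and with normexp it remained called for H19 and Igf2 but not for Grb10. At full NTBC H19 was at -0.90 ± 1.63 in Fah-/- p53-/- liver and -3.47 ± 0.19 in Fah-/- liver (SD, n = 4 each). Gpc3, by contrast, rose by 3.45 in Fah-/- liver too. Its difference of responses, 1.86, did not pass (adjusted p = 0.0533), though it was called with quantile normalization (2.03).

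**Figure D3:**
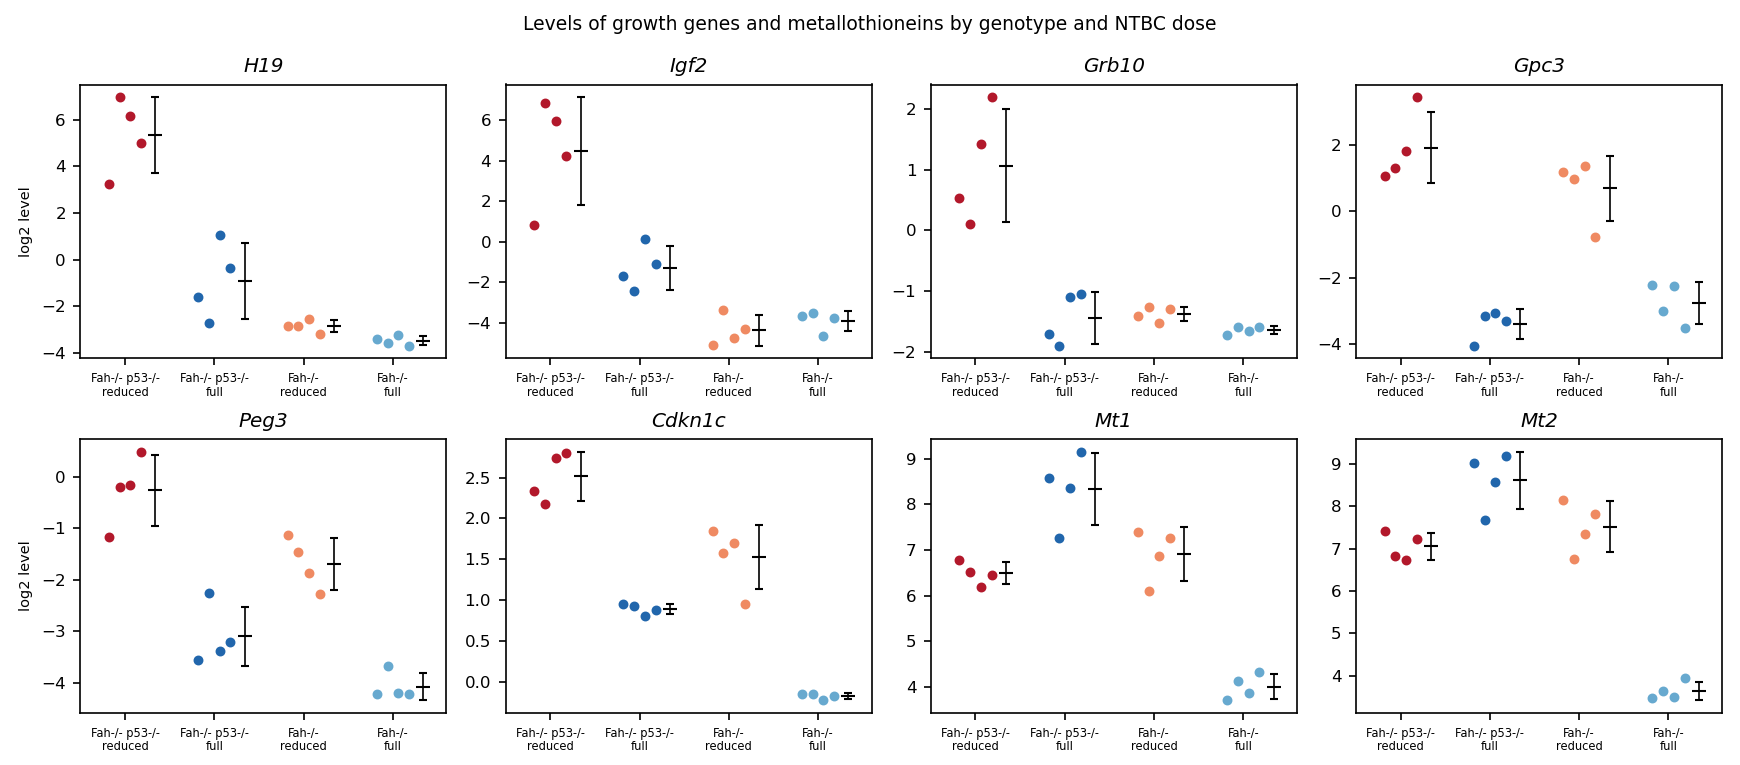
Log2 level, relative to the 75th percentile of each array, of 6 growth genes and 2 metallothioneins in 4 groups, from left to right Fah-/- p53-/- at reduced and full NTBC and Fah-/- at reduced and full NTBC; points are arrays and bars show mean ± SD. H19, Igf2 and Grb10 are highest in the first group, Gpc3, Peg3 and Cdkn1c are higher at reduced than at full NTBC in both genotypes, and Mt1 and Mt2 are lowest in Fah-/- liver at full NTBC.

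Metallothioneins, small proteins that bind zinc and copper and are induced by metals and glucocorticoids, went down. Mt1 had 6.78, 6.52, 6.19 and 6.46 at reduced NTBC, against 8.58, 7.27, 8.37 and 9.16 at full NTBC, a fall of -1.86 ± 0.33 (adjusted p = 0.000102). Mt2 had 7.41, 6.83, 6.73 and 7.23 at reduced NTBC, against 9.03, 7.68, 8.56 and 9.18 at full NTBC, a fall of -1.56 ± 0.29 (adjusted p = 0.000187). Neither gene's groups overlapped, and with normexp the falls were -1.24 for Mt1 and -0.91 for Mt2. In Fah-/- liver the same change of dose went with a rise of 2.90 for Mt1 and 3.88 for Mt2. The difference of responses was -4.76 for Mt1 (adjusted p = 1.02e-06) and -5.44 for Mt2 (adjusted p = 1.61e-08), the most negative of any named gene for Mt2, and both stayed called with normexp, with quantile normalization and in the deposited table. At full NTBC the levels of Mt2 were 8.61 ± 0.67 in Fah-/- p53-/- and 3.64 ± 0.22 in Fah-/- liver, while at reduced NTBC they were 7.05 ± 0.32 and 7.52 ± 0.60 (SD, n = 4 each). Mt3 fell by 1.35 on the log2 scale and in Fah-/- liver by 1.47. Of 9 metallothionein and zinc transporter genes 2 rose and 4 fell, against 20.3% and 19.5% of all features.

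Among heme and iron genes a few members changed, in counts near the background for iron. Hmox1, the inducible heme oxygenase, had 3.17, 4.43, 3.57 and 3.48 at reduced NTBC, against 2.59, 2.42, 2.93 and 3.29 at full NTBC, and rose by 0.86 ± 0.28 (adjusted p = 0.0188) with overlapping groups. Its call was lost without replicate 2 at reduced NTBC (0.60), without replicate 1 (0.78) and without replicate 2 (0.73) at full NTBC. Alad, the heme synthesis enzyme that succinylacetone blocks, fell by 0.77 on the log2 scale, a call lost with normexp, quantile normalization and the deposited table. Tfrc, the transferrin receptor for iron uptake, rose by 1.17 ± 0.30, and Tfr2, the hepatocyte's iron sensor, fell by 1.14 on the log2 scale, a call lost with normexp. Hamp, the iron hormone hepcidin, did not pass (-0.65 ± 0.27), and was called lower without replicate 2 at reduced NTBC (-0.93) or replicate 1 at full NTBC (-0.76). Of 11 heme genes 2 rose and 5 fell, and of 15 iron genes 3 rose and 4 fell, against 20.3% and 19.5% of all features. The median of the heme genes was -0.38 with the main scaling and 0.05 with normexp.

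Cdkn1a, the p53 target that encodes p21, rose although p53 was absent. It had -1.12, 1.90, 0.30 and -0.87 at reduced NTBC, against -2.98, -2.95, -2.43 and -3.36 at full NTBC, a rise of 2.98 ± 0.43 (adjusted p = 9.7e-06) that was 1.98 in the deposited table and 1.3 with normexp, called in both. Cdkn1a rose by 2.89 in Fah-/- liver as well, and the 2 responses did not differ beyond error (0.09 ± 0.60, adjusted p = 0.945). Of 37 known p53 targets 14 rose and 8 fell, against 20.3% and 19.5% of all features. Their median was 0.30 with the main scaling and -0.08 with normexp, where 9 of the 14 that rose kept a positive sign. In Fah-/- liver 19 rose and 5 fell, against 17.4% and 22.3% of all features, with a median of 0.58. The difference of responses was called for 7 of the 37, each more negative without p53, against 3.64% of all features. Ccng1 had 1.5, 1.59, 1.79 and 1.40 at reduced NTBC, against 0.96, 0.84, 0.90 and 0.92 at full NTBC, a rise of 0.66 ± 0.20, while in Fah-/- liver it rose by 1.76. Phlda3, a p53-induced inhibitor of Akt, did not pass (0.43 ± 0.27) and rose by 2.82 in Fah-/- liver, with a difference of responses of -2.38 (adjusted p = 0.000384). The difference was -1.10 for Ccng1 (adjusted p = 0.0166), lost with normexp, and -1.29 for the DNA damage gene Gadd45a (adjusted p = 0.0127), also lost there.

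Some other p53 targets and cell death genes changed, in both directions. Mdm2, which encodes the ligase that degrades p53, had 0.65, 0.73, 0.67 and 0.47 at reduced NTBC, against -0.13, 0.09, -0.01 and 0.01 at full NTBC, a rise of 0.64 ± 0.12 (adjusted p = 0.000203). Ddit4, a stress inhibitor of mTORC1, rose by 1.58 ± 0.24. Bax, a pore-forming death protein, rose by 0.50 ± 0.13, whereas the death activators Bbc3 (PUMA) and Bmf fell by 0.96 and 1.20 on the log2 scale. Over 14 BCL2 family genes 3 rose and 3 fell, near the 20.3% and 19.5% of all features. Gadd45b rose by 1.41 ± 0.26, and Gadd45g, at 4.25, 5.14, 5.36 and 3.80 at reduced and 4.82, 3.97, 2.26 and 2.42 at full NTBC, by 1.27 ± 0.44 (adjusted p = 0.0267) with overlapping groups. Gadd45g fell by 2.62 on the log2 scale in Fah-/- liver, and the difference of responses of 3.88 (adjusted p = 0.000441) was called with normexp, quantile normalization and the deposited table as well. Its rise in Fah-/- p53-/- liver was not called without replicate 2 (1.10) or 3 (1.03) at reduced NTBC, nor without replicate 3 (0.90) or 4 (0.95) at full NTBC.

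Myc, the growth-promoting transcription factor, was at 0.81, 1.14, 0.93 and 0.73 at reduced NTBC, against -1.04, -2.31, -1.28 and -0.57 at full NTBC. It rose by 2.2 ± 0.32 (adjusted p = 1.03e-05), with 1.17 to 2.2 over its 3 probes, and no reduced array reached down to a full one. The difference for Myc in Fah-/- liver was 0.70 and not called, and the difference of responses was 1.5 (adjusted p = 0.0339), a call lost with normexp and without single arrays of each group. With normexp the rise itself was 1.32. Atf3, a stress-induced transcription factor, rose by 1.63 ± 0.49, a call lost with normexp and without replicate 2 at reduced NTBC (1.21) or replicate 1 at full NTBC (1.21). Of 22 immediate early genes 4 rose and 4 fell, against 20.3% and 19.5% of all features. Neither Jun (-0.15 ± 0.34) nor Fos (0.19 ± 0.63) passed.

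More cell cycle genes rose than fell, and their levels depend on the background correction. Of 33 genes of S phase and DNA replication 14 rose and 3 fell, against 20.3% and 19.5% of all features, and the median of 0.54 was 0.24 with normexp, where 8 of the 14 kept a positive sign. Of 19 G1 cyclins and CDK inhibitors 7 rose and 2 fell, and their median of 0.52 was -0.21 with normexp. Mcm6, a subunit of the replicative helicase, had 2.96, 3.51, 3.98 and 3.94 at reduced NTBC, against 1.40, 1.92, 2.67 and 2.56 at full NTBC, a rise of 1.46 ± 0.35 (adjusted p = 0.00177). Mcm2, another subunit, rose by 1.32 ± 0.27, and Cdk4, the G1 kinase, by 0.76 ± 0.13. Tk1, a thymidine kinase of S phase, fell by 1.22 on the log2 scale, a call lost with normexp and without replicate 4 at full NTBC (-1.1). Among 36 mitosis and G2/M genes tested, 10 rose and 0 fell, with a median of 1.01. That median was 0.99 with quantile normalization, 0.58 in the deposited table and 0.04 with normexp, where 5 of the 10 that rose kept a positive sign.

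Mitosis genes varied widely within each group. Aurka, a spindle kinase, had -0.03, 1.69, 1.59 and 1.38 at reduced NTBC, against -1.23, -0.76, 0.37 and -0.09 at full NTBC, a rise of 1.59 ± 0.45 (adjusted p = 0.00716) in which replicate 1 at reduced NTBC lay within the full group. Ect2, a cytokinesis factor, had -1.66, 0.27, 0.34 and 0.13 at reduced NTBC, against -2.74, -3.00, -1.33 and -1.43 at full NTBC, a rise of 1.89 ± 0.39 (0.75 with normexp). Mki67, the proliferation marker Ki-67, had -0.31, 1.80, 1.61 and 0.94 at reduced NTBC, against -0.15, -0.36, 1.32 and 0.85 at full NTBC, and did not pass (0.60 ± 0.67). Plk1, a mitotic kinase, did not pass either (1.16 ± 0.56), and was called higher without replicate 1 at reduced NTBC (1.54). In Aurka, Ect2, Mki67 and Plk1, replicates 3 and 4 at full NTBC were the highest of their group. Without replicate 1 at reduced NTBC, 14 of the 36 mitosis genes rose with a median of 1.44, and 17 of the 33 S phase genes rose with a median of 0.75. The medians of the lists in Fah-/- liver were -0.21 for mitosis and -0.20 for S phase, and the difference of responses was called for 0 of 36 and 2 of 33 members.

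A stress hormone gene and some amino acid genes also changed. Fgf21, a hepatic stress hormone, had -0.59, 2.07, 0.60 and 1.36 at reduced NTBC, against -1.59, -2.44, -1.72 and -3.38 at full NTBC, a rise of 3.14 ± 0.57 (adjusted p = 0.000153) that was 1.88 with normexp. Psph, of serine synthesis, rose by 1.54 ± 0.19, and Ddit3, which encodes the stress factor CHOP, by 0.81 ± 0.22. Asns, asparagine synthetase, ranged from -1.85 to 2.10 at reduced and from -1.74 to 1.90 at full NTBC and did not pass, nor did Trib3 (0.28 ± 0.27), which was called higher with normexp (0.73). Of 20 ATF4 amino acid stress genes 6 rose (30%) and 3 fell (15%), against 20.3% and 19.5% of all features. Of 18 endoplasmic reticulum chaperones 2 rose and 7 fell, but their median of -0.23 was -0.02 with quantile normalization and 0.26 with normexp. Pdk4, which shuts pyruvate away from oxidation, rose by 2.11 ± 0.45, and Ldhb, the lactate dehydrogenase subunit B, by 2.28 ± 0.29. Of 22 glycolytic genes and isozymes 6 rose and 5 fell, against 20.3% and 19.5% of all features.

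Sterol synthesis fell across the pathway. Of 25 genes of sterol synthesis and LDL uptake 0 rose and 23 fell, against 20.3% and 19.5% of all features. Of these 25, 18 lay among the 4061 brightest features, where 42.0% fell with a median of -0.25. The median of the 25 was -1.39, and it was -1.05 with quantile normalization, -1.02 in the deposited table and -0.77 with normexp. All 25 differences were negative, and the 23 that fell were negative with normexp too. The known regulator of the pathway is SREBP2, which cells activate when membrane cholesterol is low. Mvd, mevalonate diphosphate decarboxylase, had 1.11, -1.54, -0.52 and -0.31 at reduced NTBC, against 2.64, 2.25, 2.94 and 2.50 at full NTBC, a fall of -2.90 ± 0.32 (adjusted p = 4.07e-07). Fdps, farnesyl diphosphate synthase, fell by 1.94 on the log2 scale, Tm7sf2, a sterol reductase, by 1.90, Pmvk, phosphomevalonate kinase, by 1.88, and Msmo1, a methylsterol oxidase, by 1.87. Replicate 1 at reduced NTBC was the highest of its group for Mvd, Fdps, Tm7sf2, Pmvk and Msmo1. Without it 25 of 25 fell, with a median of -1.5. The 2 that did not pass with all arrays were Cyp51 (-0.66 ± 0.29) and Lss (-0.69 ± 0.31), both enzymes of the lanosterol steps.

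For some sterol genes the fall was larger than in Fah-/- liver. There 0 of 25 rose and 13 fell, with a median of -0.67, and the difference of responses was called, more negative without p53, for 6 of 25, against 3.64% of all features. Among these 6 were Mvd (-1.77, adjusted p = 0.015), Tm7sf2 (-1.14, adjusted p = 0.0294) and Msmo1 (-1.51, adjusted p = 0.0288). With normexp Mvd, Tm7sf2 and Msmo1 were not called, at -0.63 to -1.2, Tm7sf2 was lost with quantile normalization too, and Msmo1 in the deposited table. The calls for Tm7sf2 and Msmo1 were also lost without single arrays of each group.

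**Figure D4:**
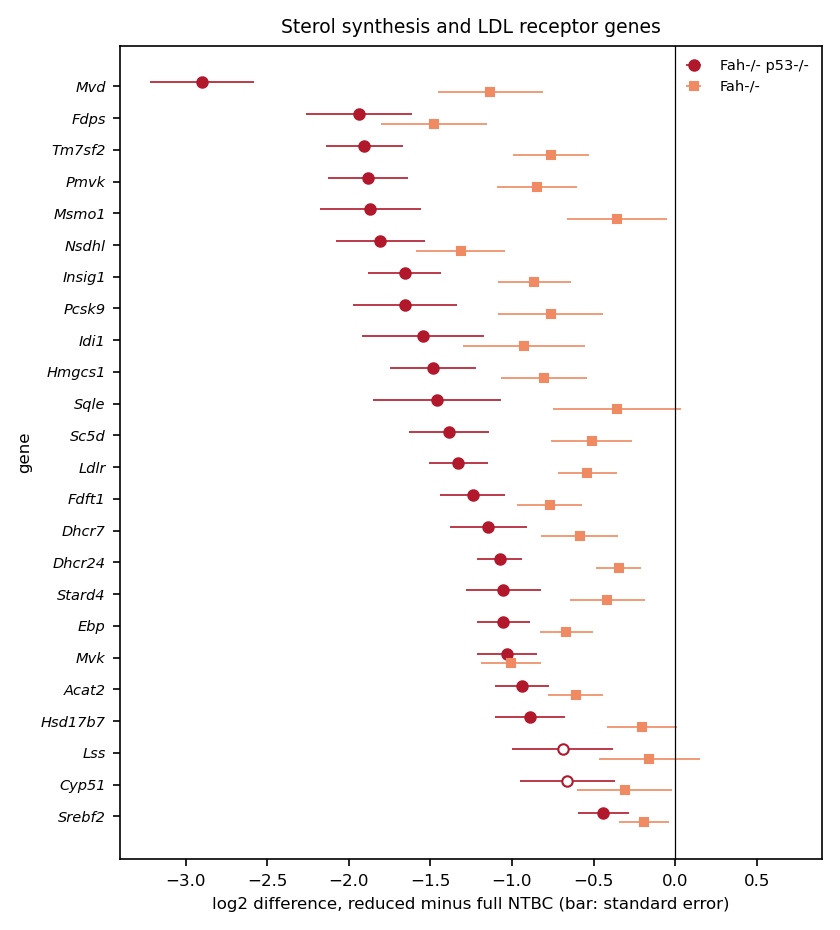
Log2 difference, reduced minus full NTBC, of 24 of the 25 sterol synthesis and LDL receptor genes in Fah-/- p53-/- liver (circles) and in Fah-/- liver (squares), with bars of 1 SE; open circles are the 2 genes that did not pass in Fah-/- p53-/- liver. All circles lie left of 0, from -2.90 for Mvd to -0.44 for Srebf2, and each lies left of the square of its gene.

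Fatty acid synthesis fell as well. Of 24 genes of fatty acid and triglyceride synthesis 0 rose and 17 fell, against 20.3% and 19.5% of all features. Their median was -0.92 (-0.41 with normexp), and 16 of the 24 lay among the 4061 brightest features, where 42.0% fell. Thrsp, a lipogenic nuclear protein, had 4.59, -0.13, 1.16 and 0.82 at reduced NTBC, against 4.99, 5.84, 6.74 and 6.14 at full NTBC, a fall of -4.32 ± 0.90 (adjusted p = 0.000561) to which replicate 1 at reduced NTBC contributed little. Scd1, the stearoyl-CoA desaturase, had 4.79, 4.44, 4.96 and 3.22 at reduced NTBC, against 5.91, 6.92, 8.36 and 7.98 at full NTBC, a fall of -2.94 ± 0.49. Fasn, fatty acid synthase, had 6.27, 4.90, 5.41 and 5.26 at reduced NTBC, against 7.04, 7.56, 8.21 and 7.67 at full NTBC, a fall of -2.16 ± 0.30 (adjusted p = 6e-06). Acacb, acetyl-CoA carboxylase beta, fell by 1.75 on the log2 scale and Acly, ATP citrate lyase, by 1.68. In Fah-/- liver the difference was -1.14 for Fasn and -0.61 for Acly, and the difference of responses was called for Acly (-1.08, adjusted p = 0.013) and Acacb (-1.30, adjusted p = 0.048). Both calls were lost with normexp, and that of Acacb also in the deposited table and without single arrays of each group. Mlxipl, which encodes the carbohydrate sensor ChREBP, did not pass with the main scaling (0.17 ± 0.17) but was called higher with normexp (0.75), quantile normalization (0.46) and the deposited table (0.45). Of 30 fatty acid oxidation and PPARA target genes 7 rose and 7 fell, with a median of 0.02.

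Bile acid genes were mixed. Of 18 tested 1 rose and 4 fell, against 20.3% and 19.5% of all features. Cyp7a1, the rate-limiting enzyme of bile acid synthesis, had 1.51, 1.73, 2.86 and 3.07 at reduced NTBC, against 4.71, 2.45, 4.10 and 3.94 at full NTBC, a fall of -1.5 ± 0.54 (adjusted p = 0.0309) that was lost with normexp, with quantile normalization, with the 8 arrays fitted alone, without replicate 1 or 2 at reduced NTBC and without replicate 1, 3 or 4 at full NTBC (-1.46 to -1.2). Cyp8b1, which makes cholic acid, rose by 0.88 ± 0.33 with overlapping groups (adjusted p = 0.0361), a call lost without replicate 1 or 4 at reduced NTBC and without replicate 3 or 4 at full NTBC (0.63 to 0.90). Slc10a2, the apical bile acid carrier, had -5.06, -2.32, -3.58 and -4.97 at reduced NTBC, against -1.69, -1.79, 1.91 and -0.01 at full NTBC, a fall of -3.59 ± 0.80 (adjusted p = 0.00107, -2.18 with normexp), and was above background on 2 of the 4 reduced arrays.

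Many genes of the adult hepatocyte fell with the main scaling, and most are bright: 7 of 8 tyrosine genes, 27 of 29 urea cycle and amino acid genes and 26 of 34 cytochromes P450 lay among the brightest features, where 42.0% fell. Of 8 genes of tyrosine and phenylalanine breakdown 0 rose and 5 fell, with a median of -0.57 (-0.22 with normexp). Tat, the aminotransferase of the first step, had 5.18, 5.84, 5.35 and 4.83 at reduced NTBC, against 5.98, 6.55, 7.26 and 7.17 at full NTBC, a fall of -1.44 ± 0.26 (adjusted p = 0.000125). Hpd, the enzyme that NTBC blocks, had 6.97, 7.09, 6.81 and 6.92 at reduced NTBC, against 7.71, 8.2, 8.12 and 8.22 at full NTBC, a fall of -1.12 ± 0.22 (adjusted p = 0.000327). The call for Hpd was lost with normexp (-0.39) and in the deposited table (-0.38). Hgd, the step before Fah's substrate forms, did not pass (-0.36 ± 0.23). Of 29 urea cycle and amino acid genes 0 rose and 15 fell, with a median of -0.58 that was -0.27 with quantile normalization and -0.03 with normexp. Hal, which breaks down histidine, had 4.89, 5.44, 4.98 and 4.28 at reduced NTBC, against 6.54, 7.03, 7.22 and 7.14 at full NTBC, a fall of -2.08 ± 0.36. Prodh, proline dehydrogenase, fell by 1.68 on the log2 scale. Cps1, which starts the urea cycle, did not pass (-0.44 ± 0.21), and was called lower without replicate 1 at full NTBC (-0.65).

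Of 34 cytochromes P450 of families 1 to 3, 2 rose and 15 fell, with a median of -0.37 that was -0.11 with quantile normalization and -0.06 with normexp. Cyp2c54 had -1.23, -1.67, -1.38 and -1.0 at reduced NTBC, against 1.99, 2.2, 1.27 and 2.65 at full NTBC, a fall of -3.35 ± 0.56 (adjusted p = 5.79e-05). Cyp2a22 moved the other way, with 7.31, 7.31, 6.96 and 7.39 at reduced NTBC, against 4.90, 5.70, 5.85 and 5.84 at full NTBC, a rise of 1.67 ± 0.21. The Cyp2a and Cyp2c families hold close copies, so a probe may read more than 1 gene. Cyp2e1, which oxidises ethanol, did not pass (-0.87 ± 0.38), and was called lower without replicate 4 at reduced NTBC or replicate 3 at full NTBC (-1.08 in both). Carboxylesterases were split, with 3 of 13 up and 7 down, against 20.3% and 19.5% of all features. Of these 13, 11 lay among the 4061 brightest features, where 42.0% fell. Ces3b had 4.93, 4.59, 4.42 and 3.5 at reduced NTBC, against 7.62, 7.73, 7.10 and 7.29 at full NTBC, a fall of -3.07 ± 0.47, while Ces2c rose by 1.88 ± 0.18 and Ces2b by 1.84 ± 0.18.

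Secreted plasma proteins fell as classes. Of 21 coagulation factors and inhibitors 0 rose and 17 fell, with a median of -0.80, and of 20 complement components 0 rose and 16 fell, with a median of -0.94. These are abundant transcripts, and among the 4061 brightest features 42.0% fell with a median of -0.25. With normexp the medians were -0.20 for coagulation and -0.32 for complement. F12, coagulation factor XII, had 4.96, 5.07, 4.73 and 4.57 at reduced NTBC, against 6.63, 6.58, 6.38 and 6.17 at full NTBC, a fall of -1.61 ± 0.15 (adjusted p = 4.37e-08). F7 fell by 1.49 on the log2 scale, C8b, of the membrane attack complex, fell by 2.33 and Lect2, a secreted hepatokine, by 1.90. Alb fell by 0.73 with the main scaling (adjusted p = 3.19e-06), but its difference was -0.10 with quantile normalization, -0.02 with normexp and 0.03 in the deposited table, none of them called.

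Acute phase proteins, which the liver makes in inflammation, were mostly lower at reduced NTBC. Of 20 tested 1 rose and 11 fell, against 20.3% and 19.5% of all features, with a median of -0.85 (-0.72 with normexp). Of these 20, 12 lay among the 4061 brightest features, where 42.0% fell. Saa1, serum amyloid A1, had 2.22, 3.27, 3.07 and 1.57 at reduced NTBC, against 8.24, 4.34, 6.03 and 4.60 at full NTBC, a fall of -3.27 ± 0.53 (adjusted p = 4.54e-05). Saa2 had 2.16, 3.77, 3.5 and 1.40 at reduced NTBC, against 8.97, 4.98 and 6.94 on the 3 full arrays with a value, a fall of -4.25 ± 0.65. Saa1 and Saa2 are near-identical copies. Replicate 1 at full NTBC was the highest for both, and without it the fall of Saa1 was -2.46 and remained called. Wfdc21, an acute phase inhibitor gene, fell by 3.48 on the log2 scale. Of 23 chemokines 1 rose and 3 fell, and of 28 interferon response genes 0 rose and 3 fell.

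Major urinary proteins, pheromone carriers of male liver driven by pulsed growth hormone, were lower on average but uneven. Mup3 had 3.93, 3.20, 2.44 and 2.0 at reduced NTBC, against 7.20, 7.96, 6.12 and 5.24 at full NTBC, a fall of -3.73 ± 0.92 (adjusted p = 0.00246). Mup1 had 6.21, 6.57, 5.95 and 4.12 at reduced NTBC, against 10.18, 10.10, 7.36 and 5.80 at full NTBC, and did not pass (adjusted p = 0.0563), though it was called lower without replicate 4 at full NTBC. Replicates 1 and 2 at full NTBC were far above replicates 3 and 4. Mup4 fell by 2.97 on the log2 scale (adjusted p = 0.0261), with overlapping groups and a call lost with quantile normalization, in the deposited table, and without replicate 4 at reduced NTBC (-2.49) or replicate 1 (-2.47) or 2 (-2.48) at full NTBC. Over 5 such genes 0 rose and 3 fell, against 20.3% and 19.5% of all features, and all are close copies. Male-biased liver transcripts as a list had 5 of 19 up and 5 down, against 1 up and 13 down in Fah-/- liver, and 8 of 19 responses differed, each more positive without p53, against 6.74% of all features. Hsd3b5, a male-specific steroid dehydrogenase, had levels of -5.39, -6.29, -4.91 and -5.66 at reduced NTBC, against -4.99, -5.40, -5.20 and -4.30 at full NTBC, and fell by 7.98 on the log2 scale in Fah-/- liver. The difference of responses was 7.39 for Hsd3b5 (adjusted p = 0.000209) and 7.24 for its neighbour Hsd3b4 (adjusted p = 1.01e-05), and both calls held with normexp, quantile normalization and the deposited table. Hsd3b5 was well above background on only 1 array of each dose without p53, its level at full NTBC was already near background, and with normexp Hsd3b5 and Hsd3b4 were called lower without p53 too (-1.42 and -1.01).

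Clock genes differed at reduced NTBC, with replicate 1 apart from the other 3. The circadian clock is a loop in which Arntl (BMAL1) with CLOCK activates Per, Cry and Dbp genes, whose products shut it off, so levels depend on the hour of sampling. The labels give day time and no hour. Of 22 clock genes 4 rose and 11 fell, against 20.3% and 19.5% of all features, with a median of -0.51 (-0.55 with normexp). Dbp, an output regulator, had 6.13, 1.24, 3.22 and 4.69 at reduced NTBC, against 6.62, 6.92, 7.49 and 7.52 at full NTBC, a fall of -3.32 ± 0.59 (adjusted p = 0.000117). Per3 had -2.12, -5.12, -4.24 and -3.44 at reduced NTBC, against -1.55, -1.14, -0.66 and -0.74 at full NTBC, a fall of -2.71 ± 0.46 (adjusted p = 7.8e-05). Ciart, whose promoter is shown above, had -0.37, -4.88, -4.77 and -3.36 at reduced NTBC, against -1.52, -1.01, 0.86 and 0.61 at full NTBC, a fall of -3.08 ± 0.81. Arntl had -1.46, 1.13, 0.72 and 0.46 at reduced NTBC, against -1.80, -1.92, -2.88 and -3.11 at full NTBC, a rise of 2.64 ± 0.44 (adjusted p = 5.45e-05).

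With normexp the differences were -1.73 for Per3, -1.76 for Ciart and 1.36 for Arntl. For Dbp, Per3 and Arntl the groups did not overlap, but replicate 1 at reduced NTBC stood beside the full arrays, and for Ciart it lay among them. Without that replicate Dbp fell by 4.09 and Ciart fell by 4.07 on the log2 scale, and 5 of 22 clock genes rose and 11 fell. Bhlhe40, a repressor of the loop, fell by 1.90 on the log2 scale. Per2 fell by 1.84 on the log2 scale at its brightest probe and had 0.11 at its other one. Nr1d1, the repressor of Arntl, did not pass (-0.44 ± 0.30). In Fah-/- liver Per3 and Arntl differed by 0.12 and -0.01 between doses, and the difference of responses was -2.83 for Per3 (adjusted p = 0.00842) and 2.65 for Arntl (adjusted p = 0.00867), both lost with normexp. The hour at which each mouse was sampled is not given, and its part in these differences was not tested. Of 18 clock genes with a promoter window, 5 held the E-box, against 8.09% of all genes with a window.

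**Figure D5:**
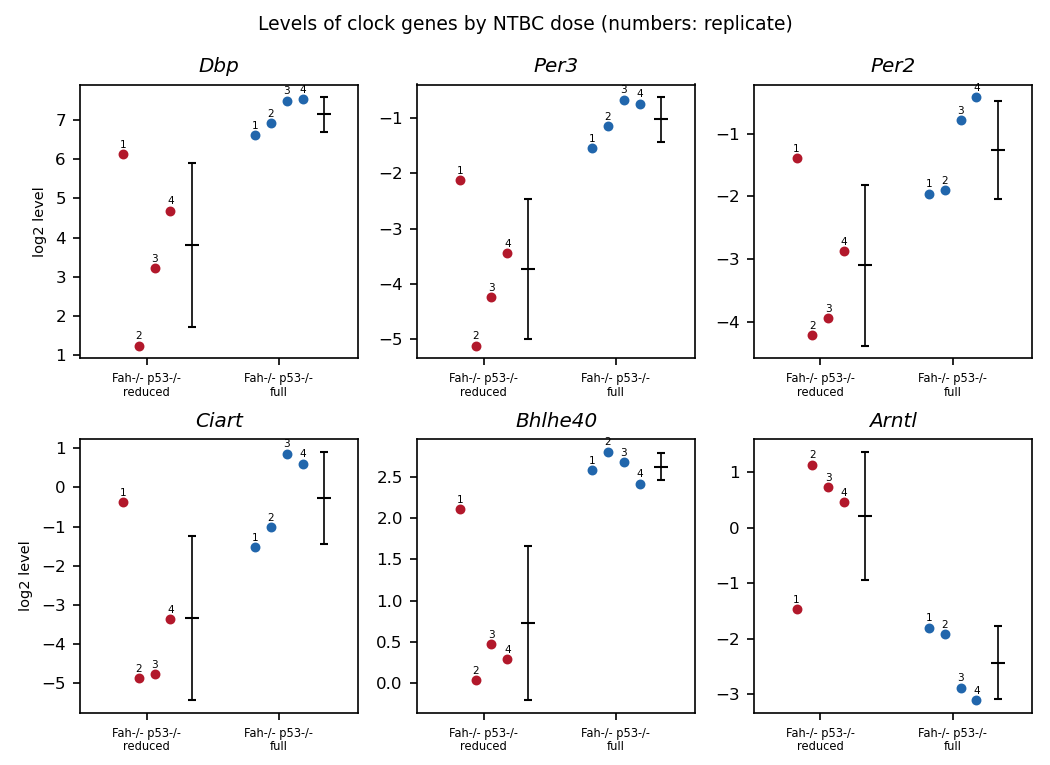
Log2 level, relative to the 75th percentile of each array, of 6 clock genes in Fah-/- p53-/- liver at reduced (red) and full (blue) NTBC; points are arrays, numbered by replicate, and bars show mean ± SD. Replicate 1 at reduced NTBC lies nearest the full arrays, or among them, in every panel, as for Dbp at 6.13 against 1.24 to 4.69 in the other 3 reduced arrays.

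Markers of other liver cells moved beside these changes. In bulk RNA, fewer cells of a type and less RNA per cell cannot be told apart. Of 26 endothelial markers 0 rose and 13 fell, against 20.3% and 19.5% of all features, with a median of -0.44 (-0.19 with normexp). Of these 26, 10 lay among the 4061 brightest features, where 42.0% fell. Their summed levels were 87.2 to 111 at reduced against 130 to 146 at full NTBC, in units of the array's 75th percentile. Vwf, a vessel wall clotting factor, fell by 0.84 on the log2 scale, a call lost with normexp, while Pecam1, a pan-endothelial marker, did not pass with the main scaling (-0.07 ± 0.14) and was called lower with normexp (-0.65). Of 31 stellate cell and matrix markers 0 rose and 5 fell (16.1%, below the share of all features). The summed levels, 104 to 166 at reduced and 123 to 179 at full NTBC, overlapped. Timp1, an inhibitor of matrix breakdown, had 0.20, 0.37, 0.11 and -0.48 at reduced NTBC, against 1.24, 1.27, 1.54 and 1.02 at full NTBC, a fall of -1.22 ± 0.29, though its second probe gave 0.91. Col1a1, the main fibrillar collagen, did not pass (-0.67 ± 0.68).

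Of 13 cholangiocyte markers 3 rose, Ggt1 among them, and 5 fell, against 20.3% and 19.5% of all features. Krt7, a bile duct keratin, had -1.75, -2.0, -2.37 and -1.81 at reduced NTBC, against -0.41, -0.17, 0.25 and -1.24 at full NTBC, a fall of -1.59 ± 0.42 (adjusted p = 0.00403), and Epcam, a duct adhesion protein, fell by 1.20 on the log2 scale and was above background on 2 of the 4 reduced arrays. Sox9, a duct and progenitor factor, rose by 1.64 ± 0.43, a call lost with normexp. In the limma fit 0 of 26 Kupffer cell and macrophage markers were called, with 0 at an unadjusted p under 0.05 (Clec4f, specific to Kupffer cells, -0.06 ± 0.24), and 0 of 8 neutrophil markers, with 0 at that level, while 1 of 22 lymphocyte markers rose. Of all 20303 features 39.8% were called in that fit, and 9756 had an unadjusted p under 0.05. Elane, a neutrophil elastase, was not well above background on any of the 8 arrays. The part of other cells in the results above was not tested.

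Some of the largest changes belonged to genes of no list. Camk2b, a calcium-dependent kinase, had -6.78, -6.30, -7.13 and -6.13 at reduced NTBC, none well above background, against 1.19, 1.37, -5.80 and 0.46 at full NTBC. It was at least 24.2-fold lower (adjusted p = 0.0028), but replicate 3 at full NTBC, too, was not above background. Nfe2, a blood cell transcription factor, had -1.29, -3.15, -2.08 and -2.52 at reduced NTBC, against 1.40, -0.75, 1.69 and 1.33 at full NTBC, a fall of -3.17 ± 0.40. Sema3a, a guidance cue, was not well above background on any reduced array and was at least 3.94-fold lower (adjusted p = 2.17e-06). Lrtm1, a leucine-rich repeat membrane protein gene, fell by 3.73 on the log2 scale. Pramel27 was not above background on any full array and was at least 9.47-fold higher (adjusted p = 6.18e-08), a call lost with normexp. Syt13, a synaptotagmin family gene, was called higher at its brightest probe (adjusted p = 8e-07), which was not well above background on any full array, and that call was lost with normexp. Its other probe differed by -0.56, so its direction is not settled.

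The response in Fah-/- p53-/- liver overlapped that in Fah-/- liver, which was measured on other arrays but with the doses in the same scan runs, so that a difference between runs would be shared. In Fah-/- liver 39.8% of all features were called, 17.4% higher and 22.3% lower. Of the 4119 features that rose, 1952 (47.4%) also rose in Fah-/- liver, which is 55.2% of those that rose there. Of the 3969 that fell, 2321 (58.5%) also fell in Fah-/- liver, or 51.2% of those that fell there. The responses themselves differed for 2108 features (10.4%), 1369 of them (6.74%) more positive and 739 (3.64%) more negative without p53. With normexp only 78 remained, of which 75 were among the 2108. Cbr3 and Abcc4 rose by 6.74 and 4.66 in Fah-/- liver, and their differences of responses were 0.31 ± 0.46 and -0.07 ± 0.39. The rise of Mgst2 was larger without p53, by 2.04 (adjusted p = 0.00559), though not called with normexp. Slco1a4 and Slc22a26 fell without p53 but rose or did not pass in Fah-/- liver, at 1.99 and 0.78, with differences of responses of -4.16 (adjusted p = 0.000201) and -5.0 (adjusted p = 1.1e-05), called with normexp too, at -3.08 and -3.14. Slc22a26 was well above background on 1 of the 4 Fah-/- arrays at full NTBC, so its difference rests in part on a level near background. The difference for Cfd, the complement protease adipsin, was called (5.68, adjusted p = 0.000476), with a fall in Fah-/- liver and no call without p53 (-0.94 ± 0.66). Cfd was well above background on 1 of the 4 Fah-/- arrays at reduced NTBC, so the size of that difference rests on levels near background, and it was 2.74 with normexp and 3.54 in the deposited table. Without p53 Cfd was called lower with normexp (-1.29) and without replicate 2 at reduced NTBC (-1.70).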

How the data were processed

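Liver RNA was hybridised to single-colour Agilent arrays, 4 per group in 7 groups. Per the file headers, the deposited scanner intensities came from Agilent Feature Extraction 10.7.3.1 (the submitters' processing notes name 10.5), and the processed signal is background-subtracted and detrended within each array. The deposited value table holds log2 values made by the authors from the same arrays. The processed signal was divided by each array's 75th percentile and taken to log2, after leaving out control spots and 87 probe values marked as outliers. Of 41174 probes, 27509 were kept, those that passed background on each of the 4 arrays in any group, and the brightest probe stood for each gene. Gene symbols came from matching the accession of each probe in the files to RefSeq transcripts (28462 probes had one). The number of arrays limits the precision.

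One limma model (R 4.3.3, limma 3.58.1, 21 residual degrees of freedom) gave 1 mean per group, with adjusted p-values by Benjamini and Hochberg, and the difference of responses between genotypes was a contrast of it. A fold against a group not above background is a bound, set against the lowest signal that passed background on its arrays. The procedure was tested on simulated data. The genes named, and 57 gene lists, were chosen with earlier results of these data known. Named genes came from the 15 largest rises and falls with arrays apart, up to 6 called and 3 uncalled members of a list, a fixed panel, and the largest differences of responses. Same-numbered arrays of the doses correlated at -0.118 to 0.152 in their deviations from the group means, and differently numbered ones at -0.237 to 0.242. With means of only 4 arrays this cannot decide whether the numbers pair arrays, and the labels do not say. Alternatives were other background corrections, normalizations, filters, probe rules and fits, and fits without each array. Normexp used median spot and background intensities with an offset of 50. Coordinates are given for promoter windows only, from RefSeq. Some genes are not reported here by name, though list counts and medians include them.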

Additional observations from a re-analysis of the deposited data

Results flagged for a closer look

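In 291 groups of 4 arrays tested, 11 values lay apart from the other 3 by Dixon's test, no more than the 1 in 20 groups that chance gives. At reduced NTBC these were replicate 1 for Fah (-1.47), Ggt1 (0.03) and Ect2 (-1.66), replicate 2 for Atf3 (0.76) and Cfd (-1.47), and replicate 4 for Bmf (-0.82). At full NTBC they were replicate 3 for Gpx4 (7.34), Srxn1 (3.91) and Camk2b (-5.80), replicate 1 for Cyp2a22 (4.90) and replicate 2 for Nfe2 (-0.75). All are log2 levels in Fah-/- p53-/- liver.

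For 26 named genes the response to the dose differed between Fah-/- p53-/- and Fah-/- liver in the limma fit, each value being the first response minus the second on the log2 scale. The more positive ones were Hsd3b5 (7.39), Hsd3b4 (7.24), Igf2 (6.22), Cfd (5.68), H19 (5.64), Gadd45g (3.88), Arntl (2.65), Grb10 (2.24), Mgst2 (2.04) and Myc (1.5). Among metal, transport and clock genes the more negative ones were Mt2 (-5.44), Slc22a26 (-5.0), Mt1 (-4.76), Slco1a4 (-4.16) and Per3 (-2.83). Among p53 targets they were Phlda3 (-2.38), Gadd45a (-1.29), Ccng1 (-1.10) and Bbc3 (-0.91). Among lipid genes they were Mvd (-1.77), Msmo1 (-1.51), Acacb (-1.30), Tm7sf2 (-1.14) and Acly (-1.08). Sema3a (-2.49) and Pecam1 (-0.65) complete the set. With normexp 11 of the 26 stayed called: Mt1, Mt2, Igf2, H19, Gadd45g, Phlda3, Slc22a26, Slco1a4, Hsd3b5, Hsd3b4 and Cfd.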

How the results depend on the processing

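Of the 146 genes named, 114 were called and 37 of these were called in every alternative run. Of the gene values, 2591 of 2757 kept their direction and side of the threshold. The count of 8088 called features was 12235 with no filter on dim probes and 254 when a change of at least 2-fold was tested, and otherwise ranged from 6340 (probes above background on all 28 arrays) to 10683 (normexp). Leaving out single arrays of either dose gave 6830 to 7711. The count of 2108 differences of responses was 78 with normexp, 1398 without Fah-/- replicate 2 at reduced NTBC, and 2758 with the 16 arrays of the 4 groups fitted alone. Leaving out single arrays gave 1398 to 2307. With the replicate number as a block the counts were 8262 and 2226, and no named gene lost its call. Slide as a random block gave 7607 and 1706. The log2 difference of Alb was 0.033 in the deposited table, and Syt13 was -0.56 with probes above background on all 28 arrays, which keep only its other probe. Of 26 called differences of responses, 11 were called under normexp, quantile normalization and the deposited table alike, and 20 in every fit without 1 array. The list values without replicate 1 at reduced NTBC were chosen after seeing the data. The causes of these shifts were not tested. Signal over background limits the dim genes, since the arrays at reduced NTBC were brighter.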
